A study of Bos taurus with 26 samples.

Results

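The endometrium of dairy cows of a high-fertility line, Fert+, was compared with that of a low-fertility line, Fert-, by RNA sequencing of biopsies from the uterine horn labelled ipsilateral, taken on day 13 of the oestrous cycle. All 14 endometrium libraries among the 26 libraries of the series were chosen by their labelled tissue: 8 from Fert+ and 6 from Fert-. The lines are known as Holstein cows chosen for good or poor genetic merit for fertility at similar merit for milk, so a label describes a cow's pedigree index and not a measured outcome of that cow. Both groups were sampled at the same cycle day, with no treatment named in the labels. Batch 1 held 3 Fert+ and 2 Fert- libraries, batch 2 held 1 of each line, batch 3 held 2 of each, and batch 4 held 2 Fert+ and 1 Fert-. Counted by parity, the Fert+ libraries were 2 of parity 2, 3 of parity 3 and 3 of parity 4, and the Fert- libraries were 1 of parity 2, 2 of parity 3 and 3 of parity 4. Whether the libraries stand for different animals is not stated in the labels. The p-values therefore describe variation among these libraries, part of which may be technical.

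The endometrium is the lining of the uterus, made of luminal and glandular epithelium on a vascular stroma. In the luteal phase, progesterone from the corpus luteum silences its own receptor in the epithelium and turns the glands to secreting histotroph, the mixture of proteins, sugars and lipids that feeds a conceptus before it attaches. In cattle the tissue then either receives interferon tau from an elongating conceptus or releases prostaglandin F2 alpha, which ends the life of the corpus luteum. Day 13 falls before that decision.

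Counts were deposited per Ensembl gene ID. The files do not pair IDs with symbols, and 0 of 24616 IDs matched the RefSeq gene table used here, so levels are given by ID, for at most 2 IDs in each direction and 1 ID whose level ranged widely between libraries. Cell type markers could not be looked up for the same reason. As a check of the labelled tissue, log2 levels of 14968 IDs correlated between endometrium libraries with Spearman's rho of 0.923 to 0.986 and between endometrium and corpus luteum libraries with rho of 0.788 to 0.864, so every endometrium library lay closer to its own tissue. Total counts ranged from 9627378 to 16580572 per library, and 16748 to 17218 IDs had at least 1 count. A count was present in all 14 libraries for 15063 IDs, and 5006 IDs had none in endometrium.

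Before the lines were compared, the libraries themselves were placed by principal components of log2 CPM, the count of an ID relative to the size of its library after trimmed-mean (TMM) scaling between libraries. The first component, with 26.6% of the variance, set 3 libraries apart: Fert- replicate 14 scored 55.7, Fert+ replicate 10 scored 54.2 and Fert- replicate 6 scored 33.7. The other 11 libraries scored between -53.3 and -0.270. The 3 libraries were of both lines, and they were all the libraries of batch 1 with parity 4. The remaining batch 1 libraries, Fert+ replicates 7 and 13 of parity 2, scored -1.41 and -12.6. The remaining parity 4 libraries, Fert- replicate 3 and Fert+ replicates 5 and 12, scored -3.93, -3.36 and -7.96. For the 3 libraries apart, the combination of batch with parity and the cow cannot be told apart. At the other end lay Fert+ replicate 1, at -53.3, followed by Fert+ replicate 4 at -24.6, both of batch 4 and parity 3. The second component, with 13.9% of the variance, had its extremes within Fert+, at 44.4 in replicate 1 and -44.7 in replicate 7.

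**Figure D1:**
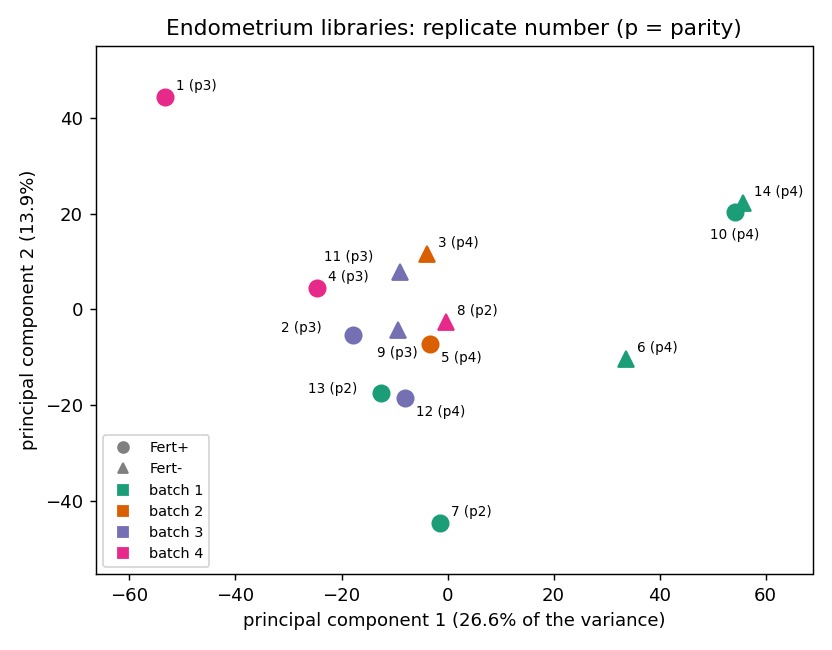
Scores of the 14 endometrium libraries on the first 2 principal components of log2 CPM; circles are Fert+, triangles are Fert-, colours are batches and labels give the replicate number with the parity. Replicates 6, 10 and 14, at 33.7 to 55.7 on the first component, come from both lines. The remaining Fert- libraries scored -9.32 to -0.270 on it and the remaining Fert+ libraries -53.3 to -1.41, so these ranges overlap in part.

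The components did not divide the lines. On the first component Fert+ averaged -8.36 ± 30.2 (SD, n = 8), against 11.1 ± 27.1 (SD, n = 6) for Fert-. The difference within batches was -19.8, with a two-sided exact permutation p of 0.106 over the 360 ways of placing the line labels within batches (adjusted p = 0.941 over 9 values per library; the smallest p possible was 0.00278). By batch it was -31.3, 0.569, -3.72 and -38.7 in batches 1 to 4. Components 2 to 5, the total count, the number of IDs with a count and the share of counts in the 10 most abundant IDs gave exact permutation p of 0.361 to 0.947. That share was 9.41% ± 2.12 (SD, n = 8) for the Fert+ libraries, against 8.82% ± 1.01 (SD, n = 6) for Fert-.

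The main comparison asked which transcripts of the endometrium differ between the lines. No ID passed the test: edgeR's quasi-likelihood test with batch as a covariate called 0 of 14243 IDs (0%) at an adjusted p under 0.05, and the lowest adjusted p was 0.674. At an unadjusted p under 0.05 there were 428 IDs (3.00% of those tested), 235 higher (1.65%) and 193 lower (1.36%) in Fert+. Without Fert+ replicate 10 that number was 887, and without Fert- replicate 14 it was 257. limma-voom called 0 IDs, with 647 at an unadjusted p under 0.05. DESeq2 called 8 (0.0562%), 3 higher and 5 lower in Fert+, and in edgeR all 8 were among the 428. Of those 8, the lines overlapped in level for 6, and mean levels ran from 1.57 to 1143 CPM.

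The differences were small for most of the transcriptome. The median absolute log2 fold change was 0.10 and the 90th percentile 0.38, while the median standard error (SE) was 0.15. Signs were close to even, with 7199 IDs higher and 7044 lower in Fert+. An absolute log2 fold change above 1 was estimated for 143 IDs (1.00%), 70 higher and 73 lower, and 66 of the 143 had an unadjusted p under 0.05. In a biopsy of mixed tissue, a lower level from fewer cells of a type and one from less RNA per cell cannot be told apart.

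**Figure D2:**
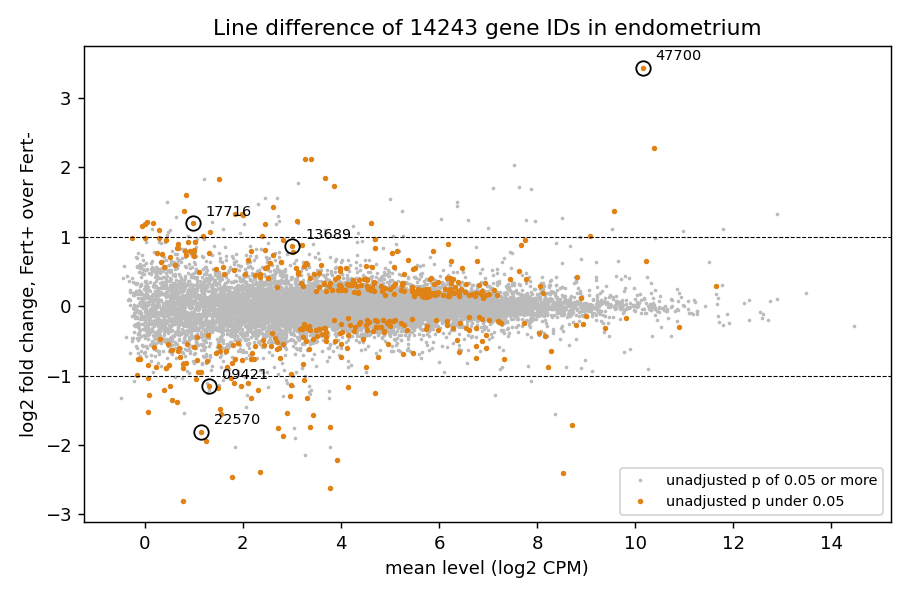
Log2 fold change of Fert+ over Fert- (vertical axis) against the mean level in log2 CPM (horizontal axis) for the 14243 IDs tested in endometrium; orange points have an unadjusted p under 0.05, dashed lines mark a log2 fold change of 1 either way, and circled IDs, labelled by their last digits, are those described in the text. Most IDs lie close to 0, and the highest point, ENSBTAG00000047700, is at 3.44.

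What the libraries could show depended on the level of the transcript. The 95% interval of the fold change lay within 2-fold in both directions for 12219 IDs (85.8%), and within 1.5-fold for 9103 (63.9%). For these IDs a larger line difference than the bound lay outside the interval. Among 2203 IDs with a mean level under 2 log2 CPM, the interval lay within 2-fold for 54.2%, and the median SE was 0.32. Between 4 and 6 log2 CPM, where 5410 IDs lay, the interval was within 2-fold for 95.3% and the median SE was 0.12. Among the 591 most abundant IDs, over 8 log2 CPM, the share was 90.5%. Of these IDs, 12 (2.03%) exceeded an absolute log2 fold change of 1. That share was 2.45% under 2 log2 CPM and 1.54% between 2 and 4. It was 0.166% (9 IDs) between 4 and 6 and 0.529% between 6 and 8, and the differences between levels were not tested. For 270 IDs the interval reached past 4-fold, so it did not exclude a line difference of that size.

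**Figure D3:**
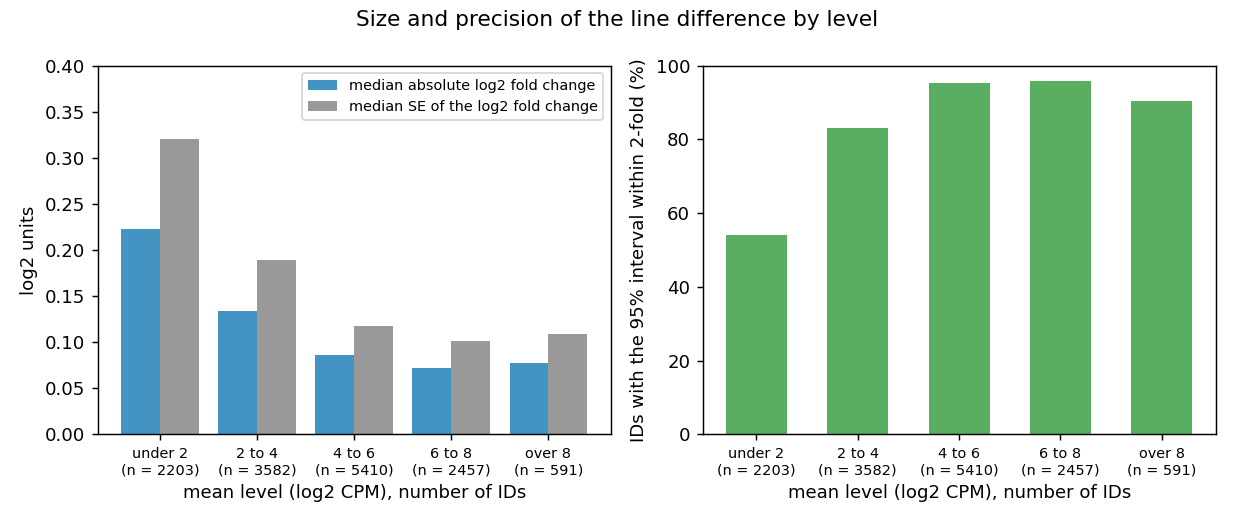
Left, median absolute log2 fold change (blue) and median SE (grey) of the line difference, in log2 units, by mean level of the ID in log2 CPM; right, the percentage of IDs whose 95% interval lies within 2-fold. The median SE exceeds the median fold change at every level, from 0.32 against 0.22 under 2 log2 CPM to 0.11 against 0.08 over 8.

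The levels of the IDs with the smallest p, for either direction, are given here, and none of them passed the edgeR test. They were picked for a small p in this same fit. Their large fold changes, intervals that leave out 0 and little overlap of the lines therefore follow in part from the choice. ENSBTAG00000022570 ranked first. Its level in the 8 Fert+ libraries was 0.365 CPM at the lowest, 0.910 at the median and 1.43 at the highest. In the 6 Fert- libraries it was 1.34, 3.56 and 6.67 CPM. The lines overlapped at the edge: the lowest Fert- library, replicate 8 of batch 4, lay below the highest Fert+ library, and the other 5 Fert- libraries lay above every Fert+ library, replicates 3, 9 and 11 at 5.10 CPM or more. The log2 fold change was -1.81 (SE 0.29, 95% interval -2.44 to -1.17, edgeR adjusted p = 0.674). Without Fert- replicate 8 it was -2.11, and this ID then passed (edgeR adjusted p = 0.0472), the one call in any of the 14 fits that left out a library. Without the 3 libraries apart on the first component it was -1.81 (edgeR adjusted p = 1.00).

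ENSBTAG00000009421, with rank 3, was also at the low end of the levels measured. It was 0.653 CPM at the lowest, 1.56 at the median and 3.01 at the highest in Fert+, and 2.08, 3.19 and 5.21 CPM in Fert-. The Fert+ libraries of batch 4 lay within the range of Fert-, and the other Fert+ libraries lay below it. The log2 fold change was -1.15 (SE 0.25, 95% interval -1.69 to -0.61, edgeR adjusted p = 0.981).

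ENSBTAG00000017716 had the smallest p of the IDs higher in Fert+. Its level was 1.32 CPM at the lowest, 2.47 at the median and 3.07 at the highest in Fert+, and 0.596, 1.12 and 1.78 CPM in Fert-. The ranges overlapped, with the lowest Fert+ libraries from batches 1 and 4 and the highest Fert- libraries from batches 2 and 3. The log2 fold change was 1.19 (SE 0.25, 95% interval 0.64 to 1.75, edgeR adjusted p = 0.981).

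ENSBTAG00000013689 was next in that direction and more abundant. It was at 6.61 CPM at the lowest, 9.01 at the median and 14.9 at the highest in Fert+, and at 4.08, 5.29 and 5.96 CPM in Fert-. Every Fert+ library lay above every Fert- library. The 2 highest Fert+ libraries, replicates 5 and 1, were of batches 2 and 4. The log2 fold change was 0.87 (SE 0.19, 95% interval 0.45 to 1.28, edgeR adjusted p = 0.981).

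The ID with the largest fold change of all 14243 was also one of the abundant ones. ENSBTAG00000047700 ran from 102 CPM through a median of 937 to 4933 CPM in Fert+ and from 7.03 through 66.2 to 668 CPM in Fert-. Its log2 fold change was 3.44 (SE 0.91, 95% interval 1.46 to 5.42, edgeR adjusted p = 0.981). The 3 highest libraries, Fert+ replicates 1, 4 and 12, were of batches 4, 4 and 3, and the Fert+ library lowest for this ID was replicate 10, at 102 CPM, one of the 3 apart on the first component. In the libraries matched in batch and parity across lines the log2 fold change was 2.20 (edgeR adjusted p = 0.998).

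**Figure D4:**
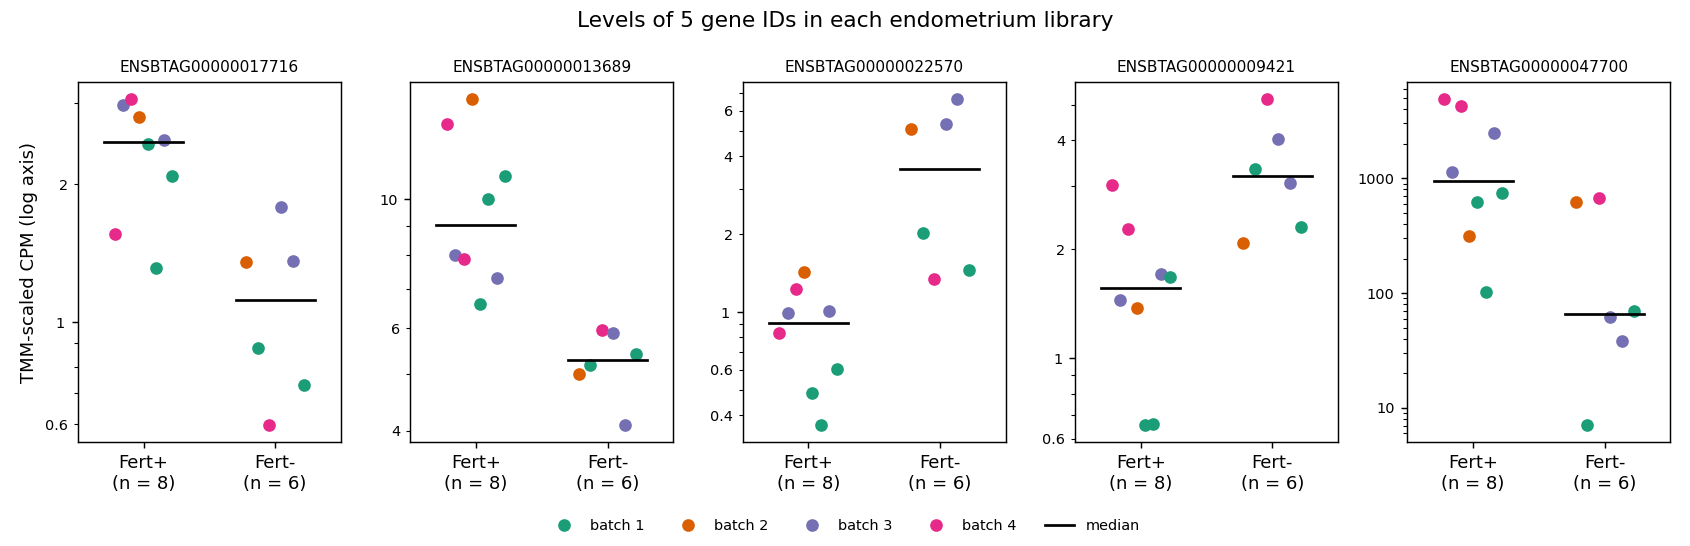
Level of the 5 IDs in each endometrium library, as TMM-scaled CPM on a log axis, for Fert+ (n = 8) and Fert- (n = 6); points are libraries coloured by batch and lines are medians. The lines overlap in each ID except ENSBTAG00000013689, where Fert+ starts at 6.61 CPM and Fert- ends at 5.96 CPM.

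Within batches, the first 4 of these IDs kept one direction. For ENSBTAG00000022570 the mean log2 CPM of Fert+ minus Fert- was -1.57, -1.73, -2.41 and -0.36 in batches 1 to 4. For ENSBTAG00000009421 it was -1.47, -0.55, -1.08 and -0.95. The IDs higher in Fert+ gave 1.10, 0.98, 0.75 and 1.65 for ENSBTAG00000017716 and 0.75, 1.55, 0.63 and 0.78 for ENSBTAG00000013689. They had been picked for a small p in the fit with batch, so this follows in part from the choice. ENSBTAG00000047700 was higher in Fert+ in batches 1, 3 and 4, by 4.00, 5.10 and 2.78, and lower in batch 2, by -0.97, where there was 1 library of each line.

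**Figure D5:**
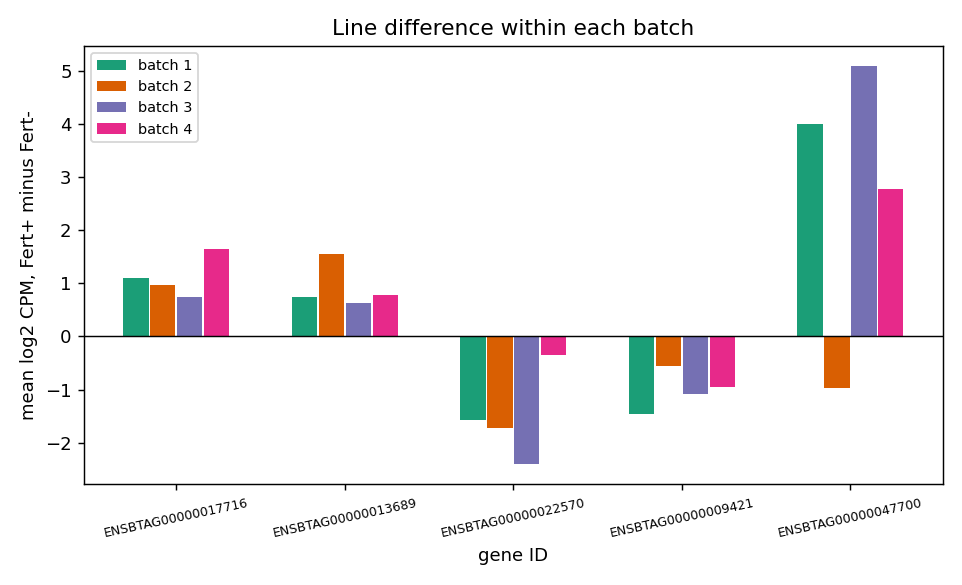
Difference in mean log2 CPM between Fert+ and Fert- within each of the 4 batches (bar colours) for the 5 IDs; bars above 0 are higher in Fert+, and batch 2 has 1 library of each line. ENSBTAG00000047700 has bars from -0.97 to 5.10, and the other IDs have all bars on one side.

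Few IDs kept the lines apart in every library. The Fert+ libraries lay above all Fert- libraries for 3 IDs (0.0211% of 14243) and below them for 2 (0.0140%). Besides ENSBTAG00000013689, one of those higher in Fert+ was a mid-abundance ID with a narrow spread, at 118 to 130 CPM in Fert+ against 111 to 117 CPM in Fert-. The other was at 4.90 to 8.54 CPM against 1.49 to 4.80 CPM. Their log2 fold changes were 0.11 and 1.01. Of those lower in Fert+, one was at 0 to 0.806 CPM against 1.32 to 5.52 CPM. Its log2 fold change of -2.80 was the lowest of all IDs tested. The second was at 3.09 to 9.63 CPM against 9.84 to 11.2 CPM, with a log2 fold change of -0.30. None of the 5 passed the edgeR test (adjusted p = 0.981 for each). The 8 IDs that DESeq2 called included ENSBTAG00000013689 (DESeq2 adjusted p = 0.0310). They also included the ID at 0 to 0.806 CPM in Fert+ (DESeq2 adjusted p = 0.00985). Of the same 14243 IDs, 65 did not overlap without the 3 libraries apart, and 28 without Fert+ replicate 10. Fewer libraries make separation easier by construction. The number expected by chance was not worked out, so neither these counts nor the 5 show a separation of the lines.

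The line differences of the 4 batches share no library, so they were set side by side over all 14243 IDs. Across these IDs, which are not independent of each other, Pearson's r between the differences of 2 batches was 0.105 for batches 1 and 2, 0.143 for 1 and 3 and 0.225 for 1 and 4. It was -0.174 for batches 2 and 3, -0.0339 for 2 and 4 and -0.0694 for 3 and 4. The values were low, and their sign differed between pairs of batches. The difference of Fert+ minus Fert- was positive in every batch for 841 IDs (5.90%) and negative in every batch for 933 (6.55%). A difference over 0.5 on the log2 scale in the same direction in all 4 batches was seen for 13 IDs higher in Fert+ (0.0913%) and 37 lower (0.260%). Random signs would also give some IDs one direction in every batch. How many was not worked out, so none of these counts shows a line effect shared by the batches. A test of the line effect differing between batches, over all line by batch terms, called 0 IDs (0%; lowest edgeR adjusted p 1.00; 409 at an unadjusted p under 0.05, and 0 called by limma-voom).

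Batch and parity were also tested as terms beside line. The batch terms together called 8 IDs (0.0562%) in edgeR, with 1885 at an unadjusted p under 0.05, and 55 in limma-voom. The parity terms, in a model with batch and line, called 0 (0%; lowest edgeR adjusted p 0.708; 999 at an unadjusted p under 0.05, and 0 called by limma-voom). Lines and parity were not balanced within batches: batch 1 had parity 2, 4 and 2 in Fert+ and parity 4 in both Fert- libraries, and batch 4 had parity 3 in its Fert+ libraries and parity 2 in its Fert- library. With parity in the model, 0 IDs were called between lines (lowest edgeR adjusted p 0.333; 454 at an unadjusted p under 0.05). In the 8 libraries that had a library of the other line with the same batch and parity (Fert+ replicates 2, 5 and 10 and Fert- replicates 3, 6, 9, 11 and 14), edgeR called 0 IDs as well, with 550 at an unadjusted p under 0.05.

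The spread of levels within a line was wider in Fert+ for more IDs. The median standard deviation of log2 CPM over the libraries of a line was 0.31 in Fert+ (n = 8) and 0.25 in Fert- (n = 6). It was more than 2 times larger in Fert+ for 2126 IDs (14.9%) and more than 2 times larger in Fert- for 617 (4.33%). No batch or parity term entered these standard deviations. The lines differ in number of libraries and in their mix of batches and parities, which can make the shares unequal, and the shares were not tested. Leaving out Fert+ replicate 13 gave 1528 (10.7%) against 880 (6.18%), and leaving out Fert+ replicates 1 and 10 together gave 1704 (11.96%) against 1362 (9.56%). Without Fert- replicate 14 it was 3102 (21.8%) against 379 (2.66%), and without the 3 libraries apart 3729 (26.2%) against 545 (3.83%). Over whole libraries the difference did not stand out from the spread: the distance of a library from the mean of the others of its line, in log2 CPM over all IDs, was 62.3 ± 15.8 (SD, n = 8) for the Fert+ libraries and 58.1 ± 10.2 (SD, n = 6) for the Fert- libraries, with a within-batch difference of 2.51 (exact permutation p = 0.689, adjusted p = 0.941). The most distant libraries were Fert+ replicates 10 and 1, at 85.4 and 83.5, and Fert- replicate 14, at 78.4.

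No ID was present in every library of one line and absent from the other. Of all 24616 IDs, before any low-count filter, 28 had at least 1 count in 4 or more Fert+ libraries and none in Fert-. Another 27 had a count in 3 or more Fert- libraries and none in Fert+. The numbers expected by chance were not worked out, so these counts do not show IDs particular to a line. The highest single count among the former was 78, and among the latter 8.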

How the data were processed

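The authors deposited whole-number read counts per Ensembl gene ID, 1 file per library, not normalised. Per the labels' protocols, TRIzol was used for extraction and the TruSeq RNA kit for libraries of polyadenylated RNA. Per the submitters' processing notes, the tools were STAR 2.3.0, featureCounts, Trim Galore, FastQC 0.10.0 and CASAVA 1.9, and the build was UMD3.1. How strand and multiply mapping reads were treated is not stated there, so near-identical or overlapping genes are uncertain.

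In R 4.3.3, the 14 endometrium libraries were fitted with edgeR 4.0.16 (filterByExpr by line, TMM scaling, batch and line, robust quasi-likelihood F test, Benjamini-Hochberg over all 14243 IDs). Log2 fold changes are Fert+ over Fert-; SE is the estimate over the root of F. Log2 CPM used a prior count of 2. limma 3.58.1 and DESeq2 1.42.0 were alternatives. For single values of a library, line labels were permuted exactly within batches. The script was tested on simulated counts. All 43 pairs of libraries of one line differed by more than sampling noise (lowest chi-square over its degrees of freedom 20.6). The IDs named were the 2 with the smallest p in each direction and ENSBTAG00000047700. The members, lists and tests were chosen with earlier results of these data known. The 14 symbol lists were not used, because no ID had a symbol. Leaving out the 3 libraries apart was an alternative chosen after seeing the data, as was the spread within lines with libraries left out.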

Additional observations from a re-analysis of the deposited data

Results flagged for a closer look

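In 2 of 28 groups of values, 1 library lay far from the others of its line; chance gives this in about 1 of 20 groups. The share of counts in the 10 most abundant IDs was 14.2% in Fert+ replicate 1, with the nearest Fert+ library at 10.2%. In Fert- replicate 14 the distance from the mean of the other Fert- libraries was 78.4, with the nearest Fert- library at 57.0.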

How the results depend on the processing

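RLE and upper-quartile scaling, both other low-count filters, fits without batch or with parity, the fit of all 26 libraries and an adjusted p under 0.10 each called 0 IDs between lines; DESeq2 called 8, and leaving out 1 library gave 0 to 1, the 1 without Fert- replicate 8. IDs at an unadjusted p under 0.05 numbered 647 in limma-voom and 257 to 887 with 1 library left out, the lowest without Fert- replicate 14 and the highest without Fert+ replicate 10. IDs past a log2 fold change of 1 numbered 1710 without a low-count filter, 247 in libraries matched in batch and parity, 256 in the fit of all libraries and 119 to 216 with 1 left out, the highest without Fert- replicate 3. limma-voom called 55 IDs between batches. Of 14243 IDs, those not overlapping numbered 3 with CPM by library total, 65 without the 3 libraries apart, and 6 to 28 with 1 left out. Separation is easier with fewer libraries. The 5 IDs named kept their direction in every alternative that tested them. They had been picked from these same libraries, which every alternative reuses in whole or in part, so this follows in part from the choice. ENSBTAG00000047700 went from 3.44 to 2.20 on the log2 scale in the matched libraries. DESeq2 called 4 of the 5 IDs named and gave ENSBTAG00000017716 an adjusted p of 0.0534.

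Several single values changed sign. The line difference in total count was 50936 without the 3 libraries apart and -1255823 to 553776 with 1 left out. That in IDs with a count kept its sign, at -133 to -6.26 with 1 left out. It was -133 without Fert- replicate 3 or Fert+ replicate 5 (exact permutation p = 0.0278, not adjusted). Batch 2 holds no other library, so leaving out either takes batch 2 out of the comparison and gives the same result. The top-10 share gave -0.144 to 0.809, and the distance -2.80 to 5.27. Component 3 gave -2.05 to 6.90 with 1 left out, and component 4 gave 4.398 without the 3 libraries apart and -8.19 to 2.89 with 1 left out. On the 1000 most variable IDs, components 3 to 5 had no counterpart of the same number (r of 0.335, 0.351 and 0.275 with the components of all IDs), so no line difference is given for them. The cause was not tested. No paired analysis was possible because the titles number the endometrium libraries 1 to 14 and Fert+ and Fert- share no number. Intervals were wider at low levels.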

Other observations

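A set of 40 IDs ranged from under 0.2 CPM in at least 1 endometrium library to over 10 CPM in another, a rule chosen after seeing the data. None was called between lines in edgeR, and 7 (17.5%) had an unadjusted edgeR p under 0.05, against 3.00% of all IDs tested. The rule picks IDs for a wide range in these same libraries, and many of the IDs peak in the same few libraries. The higher share is therefore not evidence of line differences. The highest library was Fert+ replicate 10, Fert- replicate 6 or Fert- replicate 14 for 19 of them and Fert+ replicate 1 for 10. Over those 19, picked for being highest there, the median level was 15.7 CPM in Fert+ replicate 10, 14.8 CPM in Fert- replicate 14 and 10.98 CPM in Fert- replicate 6, and Fert- replicate 8 came next at 3.57 CPM. Fert+ replicate 1 had the lowest median, at 0.104 CPM.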
